A study of Mus musculus with 17 samples.

Results

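The data described here are the RNA-seq profiles of 3 libraries titled YMdIDR, made with a construct named YAP-MΔIDR, set against 3 libraries titled SVZ. The members are all genes: the deposited counts were summed by gene symbol, which gave 52850 symbols, and 18329 of them had enough reads to be tested. The series holds 17 samples in all, of which 12 are RNA-seq libraries from mouse and 5 are ChIP-seq or CUT&RUN samples not analysed here. The YAP-M-dIDR group (n = 3) is labelled by treatment as overexpressing YAP-MΔIDR. Its source name says brain tumour tissue, while its tissue label says neural progenitors made from embryonic stem (ES) cells. The SVZ group (n = 3) is labelled wild-type by treatment, while its source name and tissue label say brain tumour. SVZ is the usual short form of subventricular zone, the stem cell layer beside the lateral ventricles. The YAP-M tumour group (n = 4), used below to compare the constructs, is labelled as brain tumours made by electroporating YAP-M in utero, a way to put plasmids into cells of the fetal brain. The NSC-YAP group (n = 2), ES-derived neural progenitor cells overexpressing YAP, entered the fit and serves as a culture reference for cell type markers. The labels give no promoter, strain, age or number of animals or cultures for these groups. They do not tie replicates to separate animals or cultures, so p-values measure only the spread between these libraries, which may be technical.

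Yap1 encodes YAP, a coactivator of transcription that cannot bind DNA by itself. It enters the nucleus when the Hippo kinases LATS1 and LATS2 do not phosphorylate it, and there it binds TEAD factors, often at enhancers that also hold AP-1 factors. Its best known targets are secreted matricellular proteins, cytoskeletal genes, proliferation genes and feedback inhibitors of the Hippo pathway itself. Fusions of YAP1 with MAMLD1 are known drivers of supratentorial ependymoma, a glial tumour of the forebrain. IDR is in general use for an intrinsically disordered region, a protein stretch without fixed structure, but the labels spell out neither the M nor the IDR of the construct names.

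TEAD factors recognise the letters GGAATG. The promoters of 3 YAP targets whose counts are described below are shown because each holds this word. They are the 250 bases before the RefSeq start of the gene on build GRCm38.p6, 5′ to 3′ on the strand of the gene, with GGAATG or its reverse complement CATTCC in capitals. Ankrd1 is at chr19:36119845-36120094 on the minus strand, with matches that begin 210 and 123 bases before the start. Cyr61, called Ccn1 in RefSeq, is at chr3:145649986-145650235 on the minus strand, with a match 103 bases before the start. Amotl2 is at chr9:102717554-102717803 on the plus strand, with a match 65 bases before the start.
Ankrd1: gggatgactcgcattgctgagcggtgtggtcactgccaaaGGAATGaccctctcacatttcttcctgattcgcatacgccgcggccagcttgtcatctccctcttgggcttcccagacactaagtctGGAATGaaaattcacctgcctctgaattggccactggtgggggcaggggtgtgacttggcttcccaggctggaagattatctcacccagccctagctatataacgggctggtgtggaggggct
Cyr61: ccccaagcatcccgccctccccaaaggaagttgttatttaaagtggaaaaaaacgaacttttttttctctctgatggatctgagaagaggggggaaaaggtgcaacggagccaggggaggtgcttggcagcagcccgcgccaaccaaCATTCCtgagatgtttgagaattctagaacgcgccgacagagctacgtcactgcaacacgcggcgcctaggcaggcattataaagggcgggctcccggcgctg
Amotl2: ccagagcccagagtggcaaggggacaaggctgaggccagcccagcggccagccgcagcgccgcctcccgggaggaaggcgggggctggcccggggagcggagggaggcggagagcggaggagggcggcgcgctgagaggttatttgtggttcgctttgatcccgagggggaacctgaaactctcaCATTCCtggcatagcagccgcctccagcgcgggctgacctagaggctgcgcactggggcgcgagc
Of the 22 YAP/TEAD targets listed here, 15 matched the RefSeq promoter table, and the word stood on either strand in 7 of their 17 promoters (41.2%), counted over 300 bases that reach 50 bases past the start. It stood in 14.7% of all 32851 promoters of that length. A match describes the letters only and is not a measured binding site.

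The YAP-M-dIDR libraries held 22247274 to 22593318 counts and the SVZ libraries 24340413 to 24762671. Genes of the mitochondrial genome took 5.55% to 6.03% of the counts in YAP-M-dIDR and 12.7% to 17.0% in SVZ. Levels below are in CPM, normalised read counts relative to the library total, with totals scaled by the TMM method of edgeR, and 3 counts in a library correspond to 0.121 to 0.135 CPM before that scaling. The YAP-M-dIDR libraries were more unlike each other than the SVZ libraries: 475 tested genes spanned at least 2 log2 units within YAP-M-dIDR and 7 within SVZ. YAP-M-dIDR replicate 1 stood apart from replicates 2 and 3, with less Yap1, less mRNA of cell cycle genes and more of Col1a1, Col1a2 and Col5a1, 3 fibrillar collagen chains, and of glia. For mature neuron markers replicate 2 was the one apart, with sums of 599, 148 and 489 CPM in replicates 1 to 3. Sums over marker lists check the labels. The 23 microglia and macrophage markers summed to 3865 to 5051 CPM in YAP-M-dIDR, 639 to 840 in SVZ and 142 to 149 in the NSC-YAP cultures. The 10 endothelial and 4 pericyte markers together summed to 387 to 398 CPM in YAP-M-dIDR, 388 to 496 in SVZ and 25.0 to 25.5 in NSC-YAP. Myeloid and vascular mRNA was thus present in the YAP-M-dIDR libraries above its level in the NSC-YAP cultures, although 1 of their labels names cultured neural progenitors. The 14 markers of mature neurons summed to 7699 to 8265 CPM in SVZ and 148 to 599 in YAP-M-dIDR. The 15 oligodendrocyte genes summed to 30665 to 36648 CPM in SVZ and 519 to 1552 in YAP-M-dIDR. In bulk samples, fewer cells of a type and less RNA per cell cannot be told apart.

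**Figure D1:**
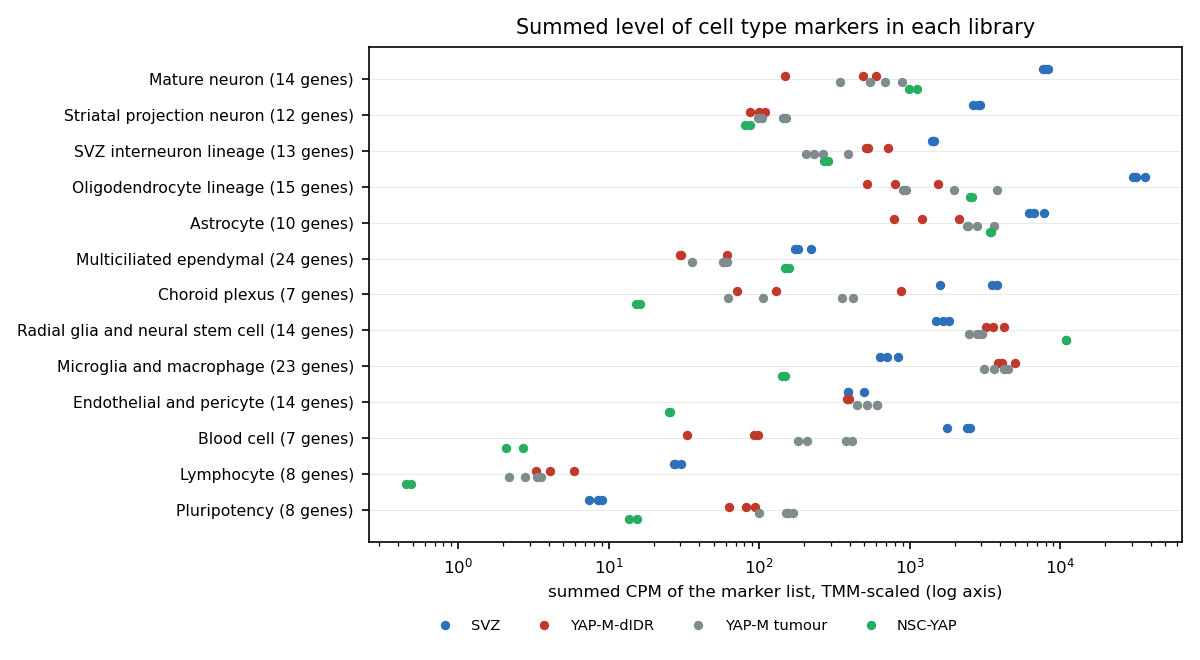
Summed CPM (log axis) of the marker lists of each cell type, with 1 point per library and 1 colour per group. Neuronal and oligodendrocyte sums are highest in SVZ (up to 8265 and 36648 CPM), and the macrophage sum of YAP-M-dIDR (3865 to 5051 CPM) lies above SVZ and NSC-YAP.

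Of the 18329 genes tested, 4932 (26.9%) rose and 5422 (29.6%) fell in YAP-M-dIDR against SVZ. A gene was called when its adjusted p was under 0.05 and its log2 fold change at least 1 in size, by the quasi-likelihood test of edgeR with Benjamini-Hochberg adjustment over all genes. Among called genes the median log2 fold change was 2.14 for rises and -2.58 for falls, and 1560 rises and 2221 falls reached 3 log2 units. The median over all tested genes was -0.0053. Counts of list members are read against 26.9% and 29.6%. The 3 libraries of each group did not overlap for 81.1% of all genes tested, so a lack of overlap is common here.

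**Figure D2:**
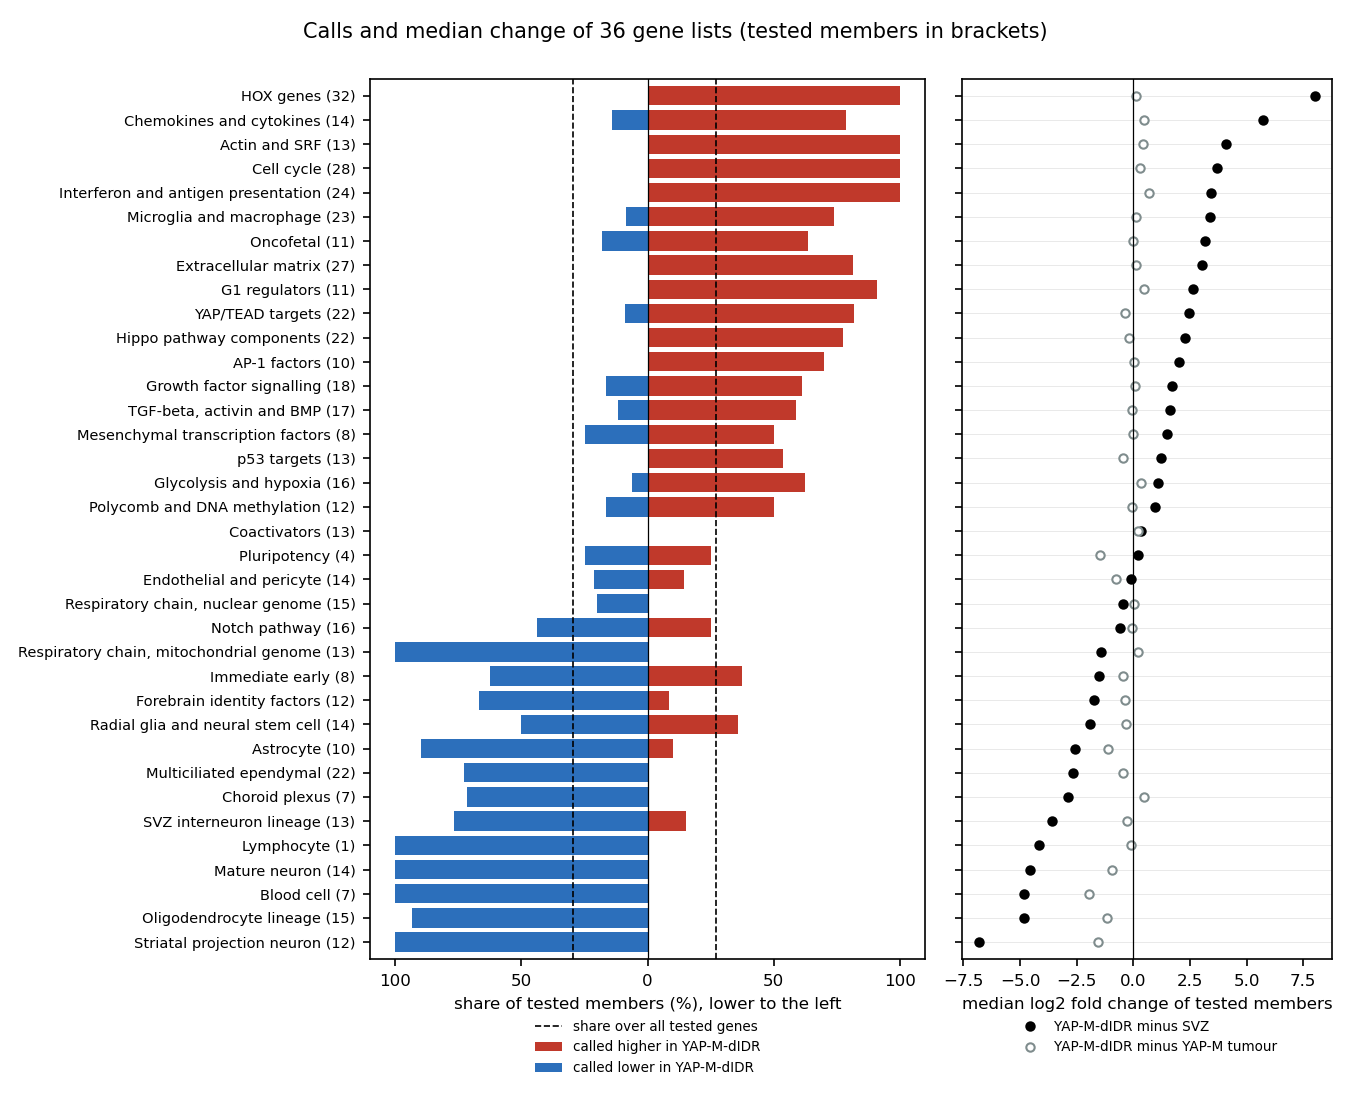
Left, the share of each list's tested members called higher (to the right) or lower (to the left) in YAP-M-dIDR against SVZ, with dashed lines at the shares over all genes (26.9% and 29.6%). Right, the median log2 fold change of each list against SVZ (filled) and against YAP-M tumour (open). Cell cycle, actin and interferon genes are near the top with all tested members higher, as are HOX genes. All 32 tested HOX genes passed the filter on low counts only through groups other than SVZ. So did 1 of 28 cell cycle, 2 of 13 actin and 4 of 24 interferon genes. Striatal neuron genes are at the bottom with a median of -6.82, and 4 of the 12 passed only through groups other than YAP-M-dIDR.

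Yap1 itself lies at chr9:7931999-8004596 on the minus strand (mm10 in the submitters' notes). Its level was 184, 839 and 1276 CPM in YAP-M-dIDR replicates 1 to 3 and 21.5, 25.3 and 27.9 CPM in SVZ. Every YAP-M-dIDR library was above every SVZ library, and replicate 1 was far below the other 2. The rise was 4.94 ± 0.55 on the log2 scale (here and below, fold change ± its standard error from the fit; adjusted p = 8.86e-06). The exact 2-sided permutation test of log2(CPM + 1) gave p = 0.1, the smallest that 3 libraries against 3 allow. YAP-M tumours had 92.8 to 105 CPM, below all 3 YAP-M-dIDR libraries, a difference of 2.98 ± 0.45 (adjusted p = 0.000517; exact permutation p = 0.0286). Mamld1, the partner gene in the known fusion, had 41.8, 59.0 and 49.3 CPM against 21.0, 23.0 and 22.7 in SVZ and rose by 1.17 ± 0.16. Whether reads of the construct were counted at Yap1 or Mamld1 was not tested.

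The canonical YAP/TEAD targets were mostly higher in YAP-M-dIDR: 18 of 22 rose, 2 fell and 2 were not called, with a median log2 fold change of 2.45. Ankrd1, a muscle ankyrin repeat protein used as a YAP reporter, had 1500, 1358 and 994 CPM in YAP-M-dIDR and 0.231, 0.0900 and 1.27 CPM in SVZ. It rose by 11.26 ± 0.64 (adjusted p = 6.17e-08), from 33 counts over the 3 SVZ libraries. Cyr61, a matricellular integrin ligand, had 621, 697 and 687 CPM against 7.66, 9.09 and 10.8 and rose by 6.19 ± 0.17 (adjusted p = 1.07e-09). Ctgf, its secreted relative, had 803, 894 and 424 CPM against 9.96, 10.9 and 11.4 and rose by 6.04 ± 0.27. For all 3 genes each YAP-M-dIDR library was far above any SVZ library. Replicate 1, with the least Yap1, was the lowest of its group for Cyr61 but not for Ankrd1 or Ctgf. Among the 8 secreted products 7 rose, among them Ccdc80 (5.04), an extracellular matrix protein, and Igfbp3 (2.81), which binds insulin-like growth factors. All 3 surface proteins rose, including the receptor kinase Axl (586, 680 and 690 CPM against 63.9 to 70.0). All 4 Hippo feedback genes rose: Amotl2, an angiomotin scaffold that holds YAP back, had 569, 724 and 743 CPM against 20.6, 26.4 and 26.0, and the kinases Lats2 (2.86) and Nuak2 (4.32) and the phosphatase Ptpn14 (3.16) were higher in all 3 libraries. The 2 that fell were Fjx1 (14.3, 6.99 and 11.1 CPM against 60.01 to 64.6), a secreted signalling protein, and Arhgef17 (-1.08), a guanine nucleotide exchange factor. Gadd45a (0.88) and Foxf2 (-0.16) were not called. Leaving out any 1 of the 6 libraries left 17 to 19 rises, and Arhgef17 was no longer called without YAP-M-dIDR replicate 3.

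**Figure D3:**
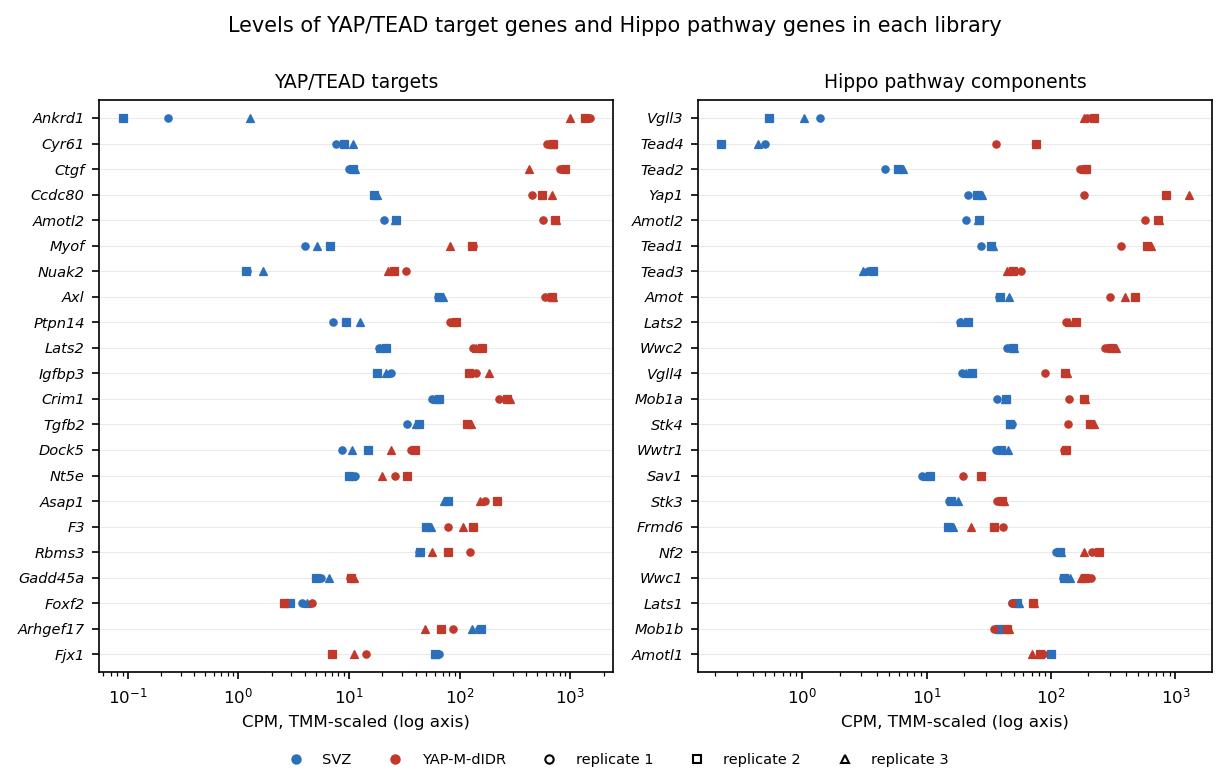
CPM (log axis) of each YAP/TEAD target and Hippo pathway gene in each library, with symbols for replicates and colours for YAP-M-dIDR and SVZ. For 18 of 22 targets and 17 of 22 pathway genes the YAP-M-dIDR points are called higher, with Ankrd1 furthest apart (994 to 1500 against 0.0900 to 1.27 CPM).

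The Hippo pathway's own components rose as well, 17 of 22, and none fell. Of the DNA-binding partners, Tead4 had 36.3, 76.2 and 76.4 CPM against 0.507, 0.225 and 0.441 (7.32 ± 0.46). Tead2 rose by 4.995, Tead1 by 4.07 and Tead3 by 3.88. Vgll3, a TEAD cofactor, had 196, 221 and 184 CPM against 1.38, 0.540 and 1.03 and changed most in the list (7.67). Wwtr1, which encodes the YAP paralog TAZ, rose by 1.69, from 36.2 to 44.8 CPM in SVZ to 127 to 131 CPM. In the kinase core 5 of 7 rose, including Stk4 (1.99) and Mob1a (2.05), while Lats1 (0.30) and Mob1b (0.15) were not called. Of the upstream scaffolds 4 of 7 rose, with Amot at 3.24, while Nf2 (0.89), Wwc1 (0.53) and Amotl1 (-0.17) were not called. Of 10 AP-1 factors 7 rose: Fosl1 had 19.6, 15.2 and 14.8 CPM against 2.25 to 2.86, Fosl2 rose by 2.42, and Atf3, a stress-induced member, by 4.41. Jun (-0.41), Jund (-0.31) and Fosb (-0.92) were not called. None of 13 general coactivators, among them Ep300 and 4 Mediator subunits, was called, and their log2 fold changes ran from -0.77 to 0.59.

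All 28 cell cycle genes rose, with a median of 3.70, both in the full comparison and with any 1 of the 6 libraries left out. Of the 28, 1 passed the filter on low counts only through groups other than SVZ. Foxm1, a transcription factor of the mitotic programme, had 59.2, 113 and 149 CPM against 3.60, 4.77 and 4.94 in SVZ. Mki67, the proliferation antigen, had 82.5, 146 and 181 CPM against 10.3, 19.4 and 15.7. Mcm2, a subunit of the replicative helicase, had 94.8, 109 and 122 CPM against 5.67, 7.61 and 7.39 and rose by 3.98. For these 3 genes the groups did not overlap, and within YAP-M-dIDR replicate 1 was lowest and replicate 3 highest. The letters TTTGAA of the CHR element, which many cell cycle promoters carry, stood on either strand in 9 of 25 promoters (36%) of the 24 genes matched and in 17.9% of all promoters of that length. The Mcm2 promoter, at chr6:88898781-88899030 on the minus strand of GRCm38.p6, is shown because it holds this word, in capitals, 70 bases before the start.
Mcm2: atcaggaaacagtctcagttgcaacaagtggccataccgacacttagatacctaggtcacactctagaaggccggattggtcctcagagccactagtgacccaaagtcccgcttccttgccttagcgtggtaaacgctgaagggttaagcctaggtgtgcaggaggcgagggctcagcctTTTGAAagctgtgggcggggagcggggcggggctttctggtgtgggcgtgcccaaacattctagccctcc

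Of 11 regulators of the G1 phase 10 rose. Cdk6, the kinase partner of D cyclins, had 212, 270 and 183 CPM against 5.81 to 7.20 and rose by 5.06. Cdkn2a, which encodes p16 and p19ARF, had 58.2, 60.7 and 44.1 CPM against 1 count over the 3 SVZ libraries, a ratio of 3495 with an exact 95% interval of 627 to 138070 for counting error. Cdkn1c, the imprinted inhibitor p57, had 1004, 1347 and 471 CPM against 14.1, 18.2 and 19.2. Cdkn1a, p21, had 193, 59.3 and 44.6 CPM against 15.5 to 18.0, highest in replicate 1. Cdkn1b, p27, was the member not called (-0.36). Of 13 p53 targets 7 rose, led by Gtse1 (4.54), which is itself a mitotic gene, and Eda2r (13.7, 2.21 and 1.46 CPM against 0.441 to 0.991); Mdm2 (0.11) and Ccng1 (0.97) were not called. Of 12 Polycomb and DNA methylation genes 6 rose, among them Uhrf1 (4.00), which guides DNA methylation at replication, and Ezh2 (1.95), the Polycomb methyltransferase. Tet1 (-3.93) and Tet2 (-1.07), which oxidise methylcytosine, fell, and Tet2 was not called without SVZ replicate 2.

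Contractile and matrix genes formed another large rise. All 13 actin and SRF genes rose, with a median of 4.07, though 2 of the 13 passed the filter on low counts only through groups other than SVZ. Acta2, smooth muscle actin, had 4154, 2350 and 942 CPM against 7.15, 5.54 and 8.57, and Cnn1, the smooth muscle calponin, had 194, 103 and 57.1 CPM against 0.294 to 0.507. Both were highest in YAP-M-dIDR replicate 1 and lowest in replicate 3. Flna, filamin A, was even across libraries, with 1020.5, 1062 and 909 CPM against 68.2 to 80.1. Of 27 matrix genes 22 rose and none fell. Thbs1, thrombospondin, had 941, 1402 and 869 CPM against 3.23 to 4.998, and Col5a2, a fibrillar collagen chain, rose by 7.39. Lox, which crosslinks collagen, had 984, 453 and 152 CPM against 2.12, 2.48 and 3.77. Fn1, fibronectin, had 2153, 2261 and 1967 CPM against 42.3 to 61.3 and rose by 5.42. Col4a1, a basement membrane chain, had 751, 985 and 1448.5 CPM against 85.6 to 101, in the opposite order of replicates to Lox and Col1a1. Sparc (0.43), Postn (0.58), Col6a1 (0.97), Lamc1 (0.78) and Itgav (0.80) were not called. Of 8 mesenchymal transcription factors Snai1, Snai2, Twist1 and Foxc2 rose, while Zeb1 fell by 2.02 and Zeb2 by 1.05. Since 5 of the 8 passed the filter on low counts only through groups other than SVZ, the count of rises is a description. The call of Zeb2 was lost without the filter on low counts and under quantile normalization.

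HOX genes encode the transcription factors that pattern the body axis behind the forebrain, and they were nearly without reads in SVZ: 26 of the 39 had no count in any SVZ library, and no tested member exceeded 0.0979 CPM there. Each of the 32 tested members therefore passed the filter on low counts only through other groups. All 32 were called higher in YAP-M-dIDR, a count that the filter largely fixed and that is given as a description. The 7 that were not tested had too few reads in every group. Hoxb9 had 39.8, 60.5 and 27.2 CPM in YAP-M-dIDR and no count in SVZ, which makes it at least 908-fold higher, with 3 counts over the SVZ group as the floor. Hoxb8 was at least 441-fold and Hoxb6 at least 342-fold higher by the same floor. Most others were lower: Hoxa2 had 0.685, 0.632 and 1.19 CPM, and Hoxc4 2.10, 0.677 and 1.28, both with no count in SVZ. Hoxa11, at 0.0428, 1.53 and 5.66 CPM, and Hoxd13, at 25.8, 2.30 and 7.92, differed widely between replicates, Hoxa11 with its lowest value and Hoxd13 with its highest in replicate 1. The fitted median of the 32 was 8.02, and 6.17 with the 20 genes at 0 in SVZ set to their bound. Under quantile normalization it was 3.88, so the size of the HOX rise depends on how counts near 0 are handled. Leaving out YAP-M-dIDR replicate 1 left 30 called, and no other library left out took the count below that. Neighbouring HOX genes overlap antisense transcripts, and whether strand was used in counting is not given in the sources used here.

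**Figure D4:**
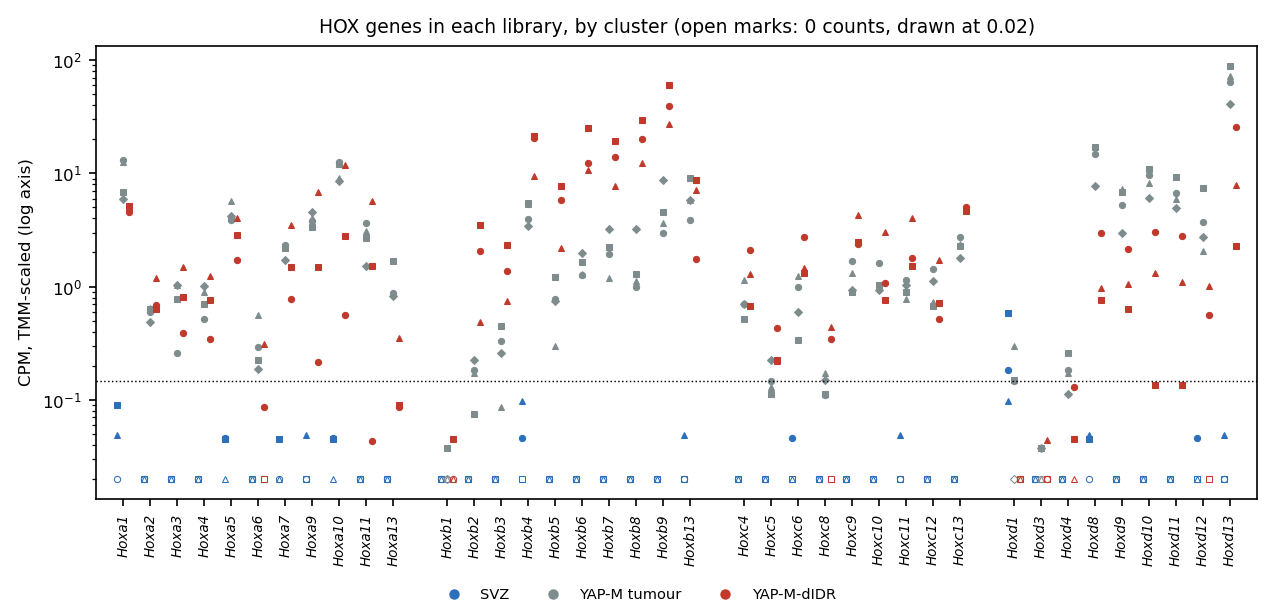
CPM (log axis) of the 39 HOX genes in each library of SVZ, YAP-M tumour and YAP-M-dIDR, by cluster. Open marks at the bottom have 0 counts, and the dotted line is the highest level that 3 counts give in these libraries. Hoxb9 reaches 60.5 CPM in YAP-M-dIDR, and YAP-M tumours are above YAP-M-dIDR in the Hoxd cluster.

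Other genes that are silent or nearly silent in SVZ made up the rest of the largest rises. Nkx2-5, a homeodomain factor of the heart, had 38.6, 39.2 and 13.4 CPM and no count in SVZ (at least 652-fold higher), and its relative Nkx2-6 had 36.6, 8.48 and 5.66 CPM (at least 369-fold). Prl3a1, a placental prolactin-family gene, had 185, 383 and 170 CPM against 3 counts over SVZ, a ratio of 5242 (counting interval 1793 to 25422). Prl2c1, of the same family, had 23.2, 6.14 and 31.2 CPM and no count in SVZ. Krtap22-2, a hair keratin-associated gene, was at least 649-fold and Klrb1b, a lectin-like receptor gene, at least 410-fold higher. Panx3, a pannexin channel gene, had 189, 314 and 321 CPM against 0.0450 to 0.0979 and rose by 11.99 ± 0.45. Prolactin-family and keratin-associated genes have close copies, so reads may be shared among them. Of 11 oncofetal genes 7 rose: Hmga2, a chromatin protein of embryonic tissue, had 210, 333 and 308 CPM against 0, 0.225 and 0.343, and the RNA-binding Igf2bp1 had 59.6, 131 and 170 CPM against 0, 0.270 and 0.0979. Igf2, an imprinted fetal growth factor, had 6857, 6292 and 10372 CPM against 104, 166 and 164 (5.76 ± 0.31, adjusted p = 3.77e-08), and was 1 of the most abundant mRNAs that rose, with Eef1a1, Actb, Gapdh, Actg1 and Eef2. H19, its imprinted neighbour, rose by 5.79, while Dlk1 (-2.69) and Meg3 (-3.57), of another imprinted cluster, fell. Lin28a and Lin28b were not called. Of the pluripotency factors Klf4 rose (92.3, 81.3 and 62.9 CPM against 4.55 to 4.94) and Esrrb fell; Nanog and Sall4 were not called, and Pou5f1, Zfp42, Dppa4 and Tdgf1 had too few reads to be tested.

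Neuronal genes fell together. All 12 striatal projection neuron genes fell, with a median of -6.82, and all 14 genes of mature neurons, with a median of -4.56. Of the 12 striatal genes, 4 passed the filter on low counts only through groups other than YAP-M-dIDR, so the striatal count is a description. Penk, the enkephalin precursor, had 609, 503 and 568 CPM in SVZ and 5.27, 2.48 and 3.80 in YAP-M-dIDR. Drd2, the dopamine receptor, fell by 7.39. Foxp1, also listed as striatal, fell least (-1.08). Snap25, of the synaptic vesicle fusion machinery, had 57.8, 6.41 and 42.4 CPM against 1179 to 1284. Replicate 2 was the lowest YAP-M-dIDR library for all 14 genes of mature neurons, and none of the 3 reached the SVZ range. Scn4b, a sodium channel subunit, had 1.54, 0.226 and 0.619 CPM against 276 to 298 (-8.47 ± 0.58). Hypothalamic peptides were among the falls too: Hcrt had 2 counts over YAP-M-dIDR and 21.8, 2.48 and 20.6 CPM in SVZ, a ratio of SVZ to YAP-M-dIDR of 502 (counting interval 138 to 4148). Avp, vasopressin, had a ratio of 339 (93.5 to 2805), also from 2 counts, and Oxt (-8.22) and Pmch (-7.70) fell as well. Hcrt was much lower in SVZ replicate 2 than in the other 2 SVZ libraries. Gpr101, an X-linked receptor gene, had 1 count over YAP-M-dIDR and 13.6 to 17.7 CPM in SVZ, a ratio of 1031 (counting interval 185 to 40752). Gpr6, Serpina9, Dlx6os1 and Ankrd63 completed the 12 largest falls, each with at most 0.514 CPM in any YAP-M-dIDR library. Of 8 immediate early genes the activity-regulated Arc (-4.65), Egr1, Egr2, Npas4 and Nr4a1 fell, while Fos (2.04), Ier2 (2.64) and Dusp1 (2.25) rose.

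Glial and niche identities fell, with exceptions. Of 15 oligodendrocyte lineage genes 14 fell, with a median of -4.83. Mbp, myelin basic protein, had 626, 206 and 350 CPM against 13036 to 16101, far below SVZ in every library. Cspg4, which also marks pericytes, had 48.9, 20.9 and 17.1 CPM against 30.4 to 33.2 and was not called. Of 10 astrocyte genes 9 fell, among them the glutamate transporter Slc1a2 (157, 35.2 and 104 CPM against 2489 to 3668). Gfap, the astrocytic intermediate filament, went the other way, with 1084, 310 and 597 CPM against 260 to 271 (1.32), and lost its call without YAP-M-dIDR replicate 1. Of 14 radial glia and neural stem cell genes 7 fell and 5 rose. Sox2, the neural stem cell factor, had 14.3, 5.28 and 10.3 CPM against 74.8 to 94.5, and Hes5, Nr2e1, Slc1a3, Prom1 and Ptprz1 were among the others that fell. Vim, vimentin, had 2212, 3310.4 and 2696 CPM against 45.8 to 47.3, Nes rose by 4.31, and Pax6 (2.30), Hes1 (2.17) and Egfr (2.88) rose too. Sox9 (0.06) and Fabp7 (-0.75) were not called. The radial glia list was therefore divided within both of its parts. Of its 7 factors 2 rose and 4 fell, and of its 7 structural and surface genes 3 rose and 3 fell.

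The interneuron lineage of the SVZ fell in 10 of 13 genes: Dlx6, a factor of newborn interneurons, had 0.214, 0.0902 and 0.177 CPM against 17.6 to 22.2, and Gad1, which makes GABA, fell by 6.05. Sox11 rose by 2.13 and Dlx2 by 1.05, but Dlx2 was not called without YAP-M-dIDR replicate 2, YAP-M-dIDR replicate 3 or SVZ replicate 1. Of 12 forebrain identity factors 8 fell, including Six3 (8.05, 0.316 and 0.0442 CPM against 48.9 to 64.4), and Emx2 rose by 1.75. Of 22 multiciliated ependymal genes 16 fell, 16 to 19 with 1 library left out. However, 15 of the 22 passed the filter on low counts only through groups other than YAP-M-dIDR, so the count is a description. The same held for 3 of the 13 interneuron genes and 4 of the 12 forebrain factors. Foxj1, the ciliogenesis factor, had 13.6, 4.29 and 4.78 CPM against 20.2 to 26.8, and the dynein gene Dnaic1 fell by 4.38. Of 7 choroid plexus genes 5 fell, 3 to 6 with 1 library left out, and the calls of Aqp1 and Kcnj13 were lost without YAP-M-dIDR replicate 2, SVZ replicate 2 or SVZ replicate 3. Ttr, transthyretin, had 654, 60.8 and 7.03 CPM against 909, 2258 and 2110 and was not called (-2.87), with the widest spread among YAP-M-dIDR libraries in that list. All 7 erythroid genes fell, with a sum of 33.4 to 98.5 CPM against 1767 to 2523. Of the 7, 3 passed the filter only through groups other than YAP-M-dIDR, so this count is a description. The globin genes of the erythroid list are near-identical pairs. Of the 14 endothelial and pericyte genes 9 were not called. Flt1 (1.09) and Pdgfrb (1.65) rose and the pericyte genes Rgs5, Kcnj8 and Abcc9 fell; Flt1 was not called without YAP-M-dIDR replicate 1, nor Kcnj8 and Abcc9 without replicate 2.

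Myeloid and inflammatory mRNA was higher in YAP-M-dIDR. Of 23 microglia and macrophage genes 17 rose and 2 fell. All 11 genes shared by these cells rose, such as C1qa of the complement cascade (912, 608 and 489 CPM against 51.1 to 65.0) and the leukocyte antigen Ptprc (45.0, 58.3 and 48.1 against 3.23 to 4.91). Of 6 genes of recruited macrophages 5 rose: Lyz2, lysozyme, had 647, 717 and 917 CPM against 4.24 to 8.42, and Arg1, arginase, 36.9, 45.8 and 27.3 CPM against 0.0923 to 0.343. Of 6 homeostatic microglia genes only Tmem119 rose (2.24), P2ry12 (-1.77) and Sall1 (-1.79) fell, and Cx3cr1 (0.80) and Siglech (-0.50) were among those not called. Of 8 lymphocyte markers 7 had too few reads to be tested. Cd4 was the exception and fell by 4.16, from 26.5 to 29.3 CPM in SVZ to 1.24 to 2.08 CPM.

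All 24 interferon and antigen presentation genes rose, with a median of 3.42, and did so with any 1 library left out. Of the 24, 4 passed the filter on low counts only through groups other than SVZ, so their direction was largely fixed by it. H2-K1, a class I heavy chain, had 322, 397 and 414 CPM against 17.0 to 19.2, and Irf7, an interferon regulatory factor, 49.2, 56.3 and 52.8 CPM against 1.89 to 3.33. The class II invariant chain Cd74 had 51.7, 712 and 492 CPM against 2.97 to 3.87, and H2-Aa and H2-Ab1 were likewise low in YAP-M-dIDR replicate 1 but above SVZ. Oas1a, an antiviral enzyme gene, had 20.4, 25.7 and 20.4 CPM against 0.495 to 0.600 and rose by 5.29. Class I genes have close copies, so their reads may be shared. The core of the interferon-stimulated response element, GAAA repeated after a gap of any 2 bases, stood on either strand in 8 of 23 promoters (34.8%) of the 19 genes matched and in 3.4% of all promoters of that length. The Oas1a promoter, at chr5:120907526-120907775 on the minus strand of GRCm38.p6, is shown because it holds overlapping matches, in capitals, that begin 20 and 14 bases before the start.
Oas1a: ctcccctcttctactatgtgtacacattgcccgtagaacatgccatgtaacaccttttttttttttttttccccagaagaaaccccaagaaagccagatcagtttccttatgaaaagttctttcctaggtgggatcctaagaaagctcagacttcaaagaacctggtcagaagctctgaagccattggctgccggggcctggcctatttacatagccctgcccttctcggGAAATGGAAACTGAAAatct
Of 14 chemokines and cytokines 11 rose, but 9 of the 14 passed the filter on low counts only through groups other than SVZ, so the count is a description. Csf1, the growth factor of macrophages, had 717, 798 and 616 CPM against 24.1 to 30.9, and Ccl2, a monocyte attractant, 20.2, 24.0 and 18.8 CPM against 0 to 0.138. Cx3cl1, the neuronal chemokine, fell by 4.06 and Il33 by 2.10, and Cxcl12 was not called (-0.57). Cxcl9, an interferon-gamma chemokine, had 9.16, 79.1 and 54.5 CPM and no count in SVZ (at least 1007-fold higher), and Ppbp, a platelet chemokine, had 301, 30.6 and 11.6 CPM against 1 count, a ratio of 7523 (counting interval 1349.8 to 297170), with replicate 1 far above the others. The macrophage marker sum was also higher in YAP-M-dIDR than in SVZ. Within YAP-M-dIDR it was highest in replicate 1 (5051, 4126 and 3865 CPM in replicates 1 to 3). The interferon and antigen presentation sum was lowest there (1961.5, 4004 and 3344 CPM). The part of macrophage mRNA in the rise of these lists was not tested.

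**Figure D5:**
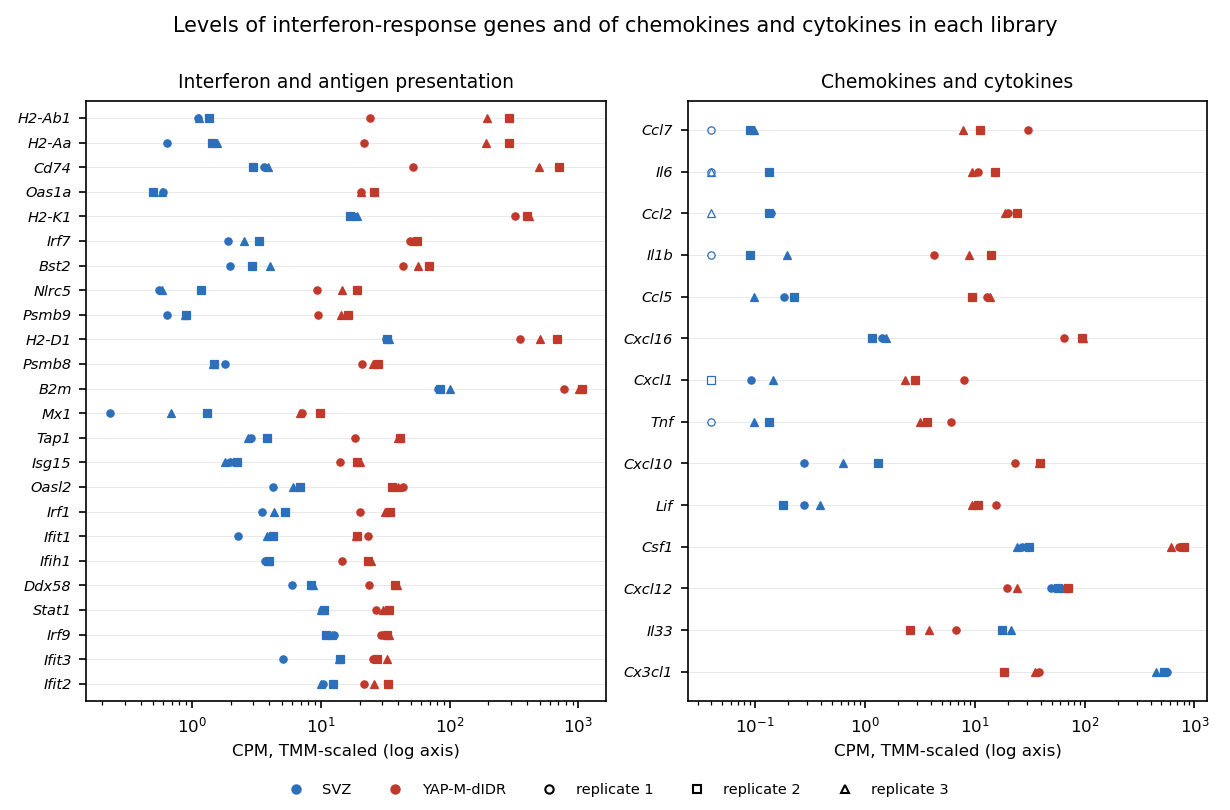
CPM (log axis) of each interferon, antigen presentation, chemokine and cytokine gene in each library of YAP-M-dIDR and SVZ, with symbols for replicates and open marks at the left edge for 0 counts. All 24 interferon and antigen presentation genes are higher in YAP-M-dIDR, and 4 of them passed the filter on low counts only through groups other than SVZ. Cd74 of replicate 1 (51.7 CPM) lies below replicates 2 and 3 (712 and 492 CPM).

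Signalling lists were mixed. Of 18 tested growth factor genes 11 rose and 3 fell. Met, the HGF receptor, had 94.1, 148 and 163 CPM against 2.86 to 3.15, Epha2 rose by 5.97, and Ereg, an EGF-family ligand, had 23.2, 13.8 and 6.72 CPM against 1 count over SVZ. Myc had 130, 143 and 102 CPM against 5.48 to 6.48, whereas Mycn (-1.72), Pdgfra (-3.63) and Tgfa (-2.53) fell. Of 17 TGF-beta, activin and BMP genes 10 rose: Tgfb3 (5.38), Bmp4 (4.55) and Inhba (4.54) among ligands, and the antagonist Fst, follistatin, at 275, 125 and 43.0 CPM against 2.88 to 3.23. Chrd (-2.08) and Id2 (-1.17) fell, Id2 not without YAP-M-dIDR replicate 2. Of 16 Notch genes 7 fell and 4 rose: the ligands Dll1 (-3.51), Dll3 and Jag2 and the targets Hes5, Hey1 and Heyl fell, Maml3, a nuclear coactivator, fell by 1.08, and Jag1 (3.26), Rbpj (1.99), Maml1 and Hes1 rose. None of the 3 receptors Notch1, Notch2 and Notch3 was called.

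Of 16 glycolysis and hypoxia genes 10 rose. Slc16a3, a lactate exporter, had 226, 293 and 344 CPM against 4.98 to 5.58, Hk2 rose by 4.05 and Ldha by 2.45, and Pfkp fell by 1.59. All 13 protein-coding genes of the mitochondrial genome fell, with a median of -1.42, but this depended on the scaling: under quantile normalization 4 fell and the median was -0.50. Of 15 nuclear genes of the respiratory chain 3 fell, Cox6c (-1.21), Ndufs1 (-1.06) and Sdha (-1.04), and without YAP-M-dIDR replicate 1 only 1 was called.

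Compared with the YAP-M tumours, the YAP-M-dIDR libraries differed in fewer genes: 1242 (6.78%) were higher and 1761 (9.61%) lower. This contrast tests the difference between the constructs' changes from SVZ, because the SVZ level is common to both. It also carries the labelled difference in tissue, which cannot be told apart from the construct. Among YAP/TEAD targets 1 of 22 was higher (Ccdc80, 1.01) and 2 lower (Igfbp3, -1.07, and Nt5e, -2.11), with a median of -0.36. Ankrd1 had 962 to 1271 CPM and Ctgf 806 to 999 CPM in YAP-M tumours, ranges that overlap those of YAP-M-dIDR. Cyr61 was lower in every YAP-M-dIDR library than in any YAP-M tumour (820 to 1051 CPM), with a difference of -0.53, under the size needed for a call. Of the cell cycle list 1 of 28 differed (Cdc6, 1.24), and of the 13 actin and SRF genes 2 were higher.

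HOX genes differed by cluster. Of 9 tested Hoxb genes 8 were higher in YAP-M-dIDR than in YAP-M tumours, with a median difference of 2.77, and Hoxb9 had 2.98 to 8.70 CPM in YAP-M tumours. All 6 tested Hoxd genes were lower, with a median of -2.51, and 3 of 7 Hoxc genes were higher. Of the 32 tested HOX genes, 7 passed the filter on low counts only through groups other than YAP-M-dIDR, and none passed through SVZ. The counts by cluster are therefore given as a description. Hoxd13 had 41.5 to 88.8 CPM in YAP-M tumours. The single Hoxa gene that differed was Hoxa13, which was lower. Interferon and antigen presentation genes were higher in 4 of 24 and lower in none, and chemokines and cytokines higher in 4 of 14 and lower in 1. Chemokines were among the 6 largest differences upward: Cxcl13, a B cell chemokine, at 9.80, 148 and 180 CPM against 1.37 to 4.90 in YAP-M tumours, and Cxcl9, at 2.27 to 6.61 CPM there. Kpna7, Crabp1, Igha and Mettl7b were the others, and Igha, an immunoglobulin constant region, was 1.24, 9.65 and 11.1 CPM against 0.223 to 0.555. Krt8, a simple epithelial keratin, had 5.39, 11.6 and 8.01 CPM in YAP-M-dIDR, 72.1 to 532 CPM in YAP-M tumours and 1.20 to 2.84 CPM in SVZ. Its rise against SVZ (2.07) was not called without YAP-M-dIDR replicate 2, SVZ replicate 1 or SVZ replicate 3. Gjb2, a gap junction gene, had 4.75, 0.722 and 2.08 CPM against 51.1 ± 31.2 (mean ± SD, n = 4) in YAP-M tumours.

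Neural markers differed between YAP-M-dIDR and YAP-M tumours in both directions. In 4 lists the calls went 1 way: 7 of 12 striatal, 4 of 14 mature neuron, 5 of 10 astrocyte and 3 of 15 oligodendrocyte genes were lower and none higher, with medians of -1.58, -0.93, -1.14 and -1.17. The interneuron lineage was divided, with 5 of 13 lower, among them Gad2 (-3.11), and 4 higher, among them Dlx2 (1.64) and Sox11 (1.57). Of 14 radial glia genes 4 were lower and Nes (1.84) was higher. Of 22 ependymal genes 2 were lower and Myb (1.26) was higher, which is near or under the shares over all genes (9.61% and 6.78%). Over all genes, the count lower than in YAP-M tumours rose from 1761 to 2566 without YAP-M-dIDR replicate 1. It was 1430 without replicate 2 and 1462 without replicate 3. The reason was not tested.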

How the data were processed

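The 12 libraries are RNA-seq of mouse samples. Per the labels' protocols, TRIzol and RNeasy extracts were made into Illumina TruSeq libraries. Per the submitters' processing notes, TopHat2 was used and the build was mm10. The counter and its handling of strand and of multiply mapped reads were not stated in the sources, so reads of close copies, overlapping genes and antisense transcripts may be split or shared. The authors deposited 1 table per library with whole-number counts per gene, not normalized, for 53090 entries with coordinates and symbols. Entries that share a symbol (453) were summed to 52850 symbols.

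Groups came from the sample titles. The 18329 genes that reached 1 CPM in 2 or more libraries were tested in edgeR 4.0.16 (quasi-likelihood test; R 4.3.3), with TMM scaling and all 12 libraries of 4 groups in 1 fit, and Benjamini-Hochberg adjustment over all genes. Calls needed an adjusted p below 0.05 and a change of 1 log2 unit or more. Standard errors are the log2 fold change divided by the square root of the test's F value. For genes with no count in 1 group, folds are bounds against 3 counts over that group, and for 1 to 3 counts ratios carry exact 95% intervals. Both cover counting error only, since PCR reads are not independent molecules. The depth of 22247274 to 24762671 counts in the 6 libraries sets the precision. Levels are not corrected for gene length and are compared between samples only.

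The 36 gene lists (542 genes, 520 tested) and the named genes were chosen with earlier results of these data known. Named genes are Yap1, Mamld1, Ankrd1, Ctgf and Cyr61, the 12 largest rises and 12 largest falls among called, non-overlapping genes whose higher group averaged 5 CPM or more and whose symbol is an assigned name, in each list the 5 members with the lowest adjusted p and those called against their list's main direction, the 6 largest differences each way from YAP-M tumour among such genes, and the 6 most abundant called genes of each group. Other list members named in the text were chosen after their values were seen, and a few genes that the rule names are not reported here. Lists are described by counts and medians with no set test. The filter on low counts largely fixed the direction of members that passed it only through groups other than SVZ, or other than YAP-M-dIDR. Further lists held some members of this kind, such as 3 of 16 Notch and 2 of 14 radial glia genes on the YAP-M-dIDR side. On the SVZ side they included 3 of 10 AP-1 factors, 3 of 11 oncofetal and 3 of 23 macrophage genes. Promoters came from the RefSeq table of GRCm38.p6, and both strands were searched.

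Alternatives were the unfiltered table, a 5 CPM minimum, median-ratio scaling, quantile normalization with limma 3.58.1, DESeq2 1.42.0, the compared groups alone, the replicate number as a block, the highest entry per symbol, the adjusted p alone, mitochondrial genes left out, and each library left out in turn. The fit was tested on simulated data: for YAP-M-dIDR against SVZ (16711 genes), 36 of 100 genes changed 2-fold and 100 of 100 changed 4-fold were called, with 7 false calls. For YAP-M-dIDR against YAP-M tumour (17120 genes) the numbers were 46, 99 and 6. A simulated 2-fold change lies exactly at the size limit of a call. With the adjusted p alone, 51 and 69 of the 100 genes changed 2-fold were found in the 2 comparisons. The simulation changed few genes and gave every group the same spread, unlike the data, so its rates do not carry over to these comparisons. Figures were drawn with matplotlib 3.10.9.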

Additional observations from a re-analysis of the deposited data

Results flagged for a closer look

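Only some named genes were screened for an outlying YAP-M tumour library. They were Yap1, Mamld1, Ankrd1, Ctgf and Cyr61, the genes named for their difference from YAP-M tumour, and those named for abundance. Among them 1 of 4 libraries lay apart from the other 3 for 3 genes: Cxcl9, with 6.61 CPM in replicate 2, Avp, with 7.39 CPM in replicate 3, and Calcr, with 2.22 CPM in replicate 3. The remaining named genes, such as Oxt and Hoxb8, were not screened. Chance gives such a gap in about 1 in 20 groups.

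The change from SVZ differed between the constructs for 79 of 234 named genes. The test was the edgeR contrast of YAP-M-dIDR against YAP-M tumour, in which the SVZ level cancels. Over all genes tested, 6.78% were higher and 9.61% lower in this contrast. Some of the 79 were named because they were called in it, so the count is a description. The labelled difference in tissue cannot be told apart from the construct here. The 11 given here are among the largest differences. Those upward on the log2 scale were 5.33 for Cxcl13, 4.97 for Kpna7, an importin gene, 4.53 for Crabp1, which binds retinoic acid, 4.20 for Igha, 3.90 for Mettl7b and 3.77 for Cxcl9. In each of these 6 genes all 3 YAP-M-dIDR libraries were above all 4 YAP-M tumours, and YAP-M-dIDR replicate 1 was below replicate 2. Crabp1 had 6.46, 13.4 and 6.28 CPM in YAP-M-dIDR, 0.221 to 0.595 CPM in YAP-M tumours and 3.41 to 4.21 CPM in SVZ, and its rise against SVZ was not called without YAP-M-dIDR replicate 2. Those downward were -6.78 for Gpr101, -5.82 for Avp, -4.75 for Krt8, -4.36 for Calcr and -4.33 for Gjb2. Gpr101, Avp and Calcr had 1 or 2 counts over the 3 YAP-M-dIDR libraries, so these fitted values depend on the prior count. The calls of Avp and Calcr against YAP-M tumour were lost under quantile normalization and without any 1 of the 3 YAP-M-dIDR libraries, and that of Avp also without YAP-M tumour replicate 3. The fall of Gjb2 against SVZ (-1.78) was not called without YAP-M-dIDR replicate 2 or replicate 3.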

How the results depend on the processing

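For YAP-M-dIDR against SVZ, every alternative kept the count of rises (4057 to 6045 over all alternatives but the adjusted p alone, which gave 7153) and of falls (3932 to 6879, and 7244) within 1.5 times the reported count. Leaving out 1 library gave 4792 to 4927 rises and 5214 to 5585 falls. Against YAP-M tumour the counts were less stable: 819 higher with a minimum of 5 CPM, 4199 higher and 3768 lower with the adjusted p alone, and 1045 to 1282 higher and 1430 to 2566 lower with 1 library left out, the highest without YAP-M-dIDR replicate 1. The cause was not tested, except that the adjusted p alone drops the size limit.

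Same-numbered libraries of YAP-M-dIDR and SVZ deviated together with r = 0.0715, 0.0624 and 0.0128, so the numbers were not taken as pairs. With the replicate number as a block 4710 rose and 5120 fell against SVZ, and against YAP-M tumour 956 were higher and 1222 lower. YAP-M-dIDR replicate 2 correlated best with SVZ replicate 3 (0.0714).

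Quantile normalization moved the median of all genes by 0.109, to 0.104, and turned mt-Co1 to 0 and mt-Co2 to 0.068. The endothelial and pericyte median (-0.084) became 0.0029 under it and ran from -0.29 to 0.0099 with 1 library left out, and the pluripotency median (0.20) ran from -0.065 to 0.40, below 0 without SVZ replicate 2. Of 288 recomputed list medians, 18 moved by at least the spread of the list's level between libraries and 3 changed sign. Of the 36 lists, 23 did neither in any setting. The HOX median (8.02) became 3.88 under quantile normalization, and the choroid plexus median (-2.87) became -4.63 without YAP-M-dIDR replicate 1. The Yap1 difference of log2(CPM + 1) was 4.50, 4.71 unscaled and 3.93 to 5.33 with 1 library left out. Of 234 named genes, 203 kept direction and call against SVZ in every fit that tested them, 21 lost a call somewhere with their direction kept, 2 (mt-Co1 and mt-Co2) lost both, and 8 gained a call with the adjusted p alone. Of 79 called against YAP-M tumour, 53 kept it. Depth limits the HOX bounds, since 20 tested members had no count in SVZ.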
